A study of Coturnix japonica with 15 samples.

Results

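The cytosolic ribosomal protein genes were followed in the left-lobe liver of embryos of the Japanese quail, Coturnix japonica, on day 9 of development. They were taken as the genes whose symbol in the NCBI gene table of this species is RPL or RPS with a number, or RPLP0, RPLP1, RPLP2 or RPSA, without the RPS6K kinases. The rule found 76 of the 20308 gene IDs of the deposited table, of which 46 encode proteins of the large subunit and 30 proteins of the small subunit, counting the proteins related to them by name. The symbols RPS18, FAU, RPL17, RPL18, RPL26 and RPL41 did not match and are not analysed here.

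Each egg was injected through the air cell with 10 µl of solution, before incubation began. The solution was DMSO alone (solvent) or held ethinylestradiol, a synthetic oestrogen, at 3.33 or 33.3 µg per g of egg weight. Each of the 3 groups held 5 libraries, and the DMSO of the solvent group is the background against which both doses were set. The labels do not say that each library came from a separate embryo, so the p-values measure the spread between these samples.

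A eukaryotic ribosome joins a large subunit, which forms the peptide bond, to a small subunit, which reads the messenger RNA, and each subunit holds ribosomal RNA and a fixed set of proteins. Most of these proteins are needed in equal amounts, and in vertebrates their messenger RNAs begin with a tract of pyrimidines through which the kinase mTOR and the RNA-binding protein LARP1 set their translation. The liver makes most plasma proteins and, in laying birds, the yolk precursors, so it carries a high load of protein synthesis.

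Library totals ran from 21715263 to 54591387 estimated counts. Hepatocyte markers were present throughout, with 9 of 10 symbols matched and a summed level of 163433 to 198649 CPM (counts on a TMM-scaled library total set to 1e+06) with solvent, 83014 to 199407 CPM at 3.33 µg/g and 100314 to 198272 CPM at 33.3 µg/g. APOB was called higher at both doses, and the fibrinogen genes FGB and FGG lower at 33.3 µg/g. Of the 9 markers 7 had a log2 fold change below 0 at 3.33 µg/g (median -0.53) and 7 at 33.3 µg/g (median -0.16). An unadjusted p under 0.05 was found for 7 of the 9 at 3.33 µg/g and for 5 of the 9 at 33.3 µg/g. The part of these changes in the values of the ribosomal protein genes was not tested. The 4 matched erythroid markers summed to 142 to 240 CPM with solvent, 109 to 268 CPM at 3.33 µg/g and 132 to 226 CPM at 33.3 µg/g, and the 6 macrophage markers to 29.0 to 47.5, 42.7 to 112 and 30.6 to 50.5 CPM in the same order of groups. No marker of these lists, or of the endothelial, stellate and biliary lists, was at 0 in every library. A pair of libraries stood apart by albumin, which took 4.85% of the counts in 3.33 µg/g replicate 4 and 5.87% in 33.3 µg/g replicate 1, against 9.71% to 13.3% in the others. By the level of genes on chromosome Z 4 libraries stood apart, this pair among them. They are described with the ribosomal protein genes placed there.

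The ribosomal protein genes together took a similar share of the transcriptome in the 3 groups. In replicates 1 to 5 they made up 3.50%, 3.52%, 3.71%, 3.58% and 3.43% of the estimated counts with solvent. The shares were 3.45%, 3.50%, 3.39%, 4.16% and 3.74% at 3.33 µg/g, and 4.07%, 3.13%, 3.002%, 3.39% and 3.80% at 33.3 µg/g. The groups overlapped, and the solvent libraries lay closest together. Group means were 3.55% ± 0.103 with solvent, 3.65% ± 0.313 at 3.33 µg/g and 3.48% ± 0.448 at 33.3 µg/g (SD, n = 5 each).

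The highest shares were those of the pair of libraries with little albumin, and their height depended on the scale. On TMM-scaled totals, which let an abundant transcript weigh less, the family summed to 34782 CPM in 3.33 µg/g replicate 4 and 35974 CPM in 33.3 µg/g replicate 1, both inside the range of the solvent libraries, 34447 to 38299 CPM. The sums were 32887 to 38902 CPM over the 3.33 µg/g libraries and 31887 to 40975 CPM over the 33.3 µg/g libraries. The lowest sum was in 33.3 µg/g replicate 3 and the highest in 33.3 µg/g replicate 5, so that the range at this dose held all the other libraries. In bulk tissue a change in the cells that hold an RNA cannot be told apart from a change in the RNA per cell.

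**Figure D1:**
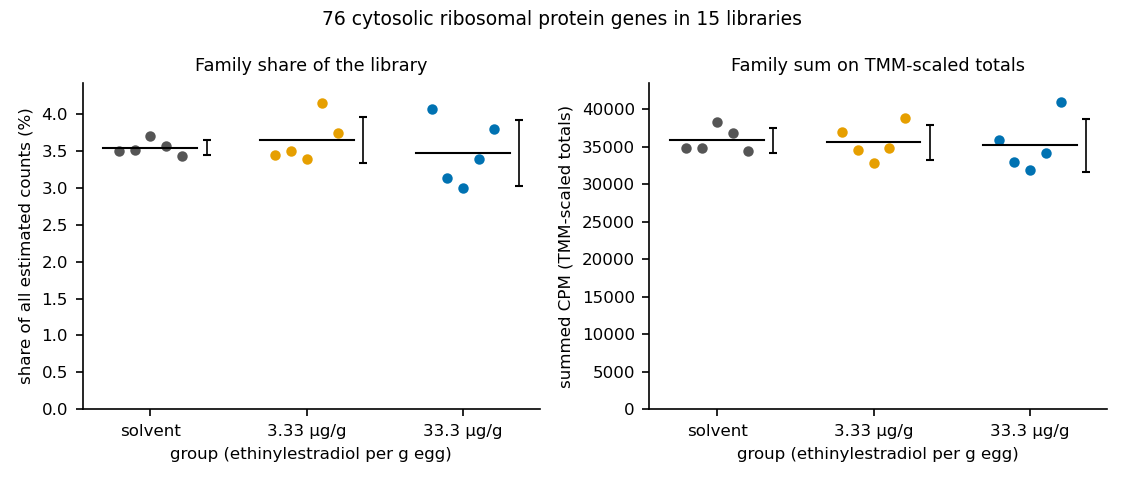
Share of all estimated counts (left, percent) and summed level on TMM-scaled totals (right, CPM) of the 76 cytosolic ribosomal protein genes, by ethinylestradiol group. Points are single libraries in order of replicate number, horizontal lines the group means and vertical bars the SD over 5 libraries. The 33.3 µg/g libraries run from 31887 to 40975 CPM and span the other groups.

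None of the ribosomal protein genes passed the test at either dose, and the share of all genes that did was itself small. A p that misses the threshold does not show that a gene kept its level. At 33.3 µg/g against solvent, 157 of 14508 tested genes (1.08%) passed edgeR's quasi-likelihood test with Benjamini-Hochberg adjustment at 0.05, and 0 of the 76 ribosomal protein genes did. The comparison of 3.33 µg/g with solvent gave 200 genes (1.38%), again with 0 of the 76. Between 33.3 and 3.33 µg/g the test called 0 of 14508 genes (0.0%), with 805 at an unadjusted p under 0.05, and DESeq2 called 19; neither called a ribosomal protein gene. The number of the 76 with an unadjusted p under 0.05 was 0 in each of these comparisons, and DESeq2 also called 0 in each. All 76 had enough counts to be tested, and all but RPL3L, with 4 to 15 counts per library, had at least 1902 counts in every library.

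The fold changes lay close to 0. At 33.3 µg/g against solvent the median log2 fold change of the family was -0.02, with a range of -0.22 to 0.12, and 25 of 76 were above 0. For 3.33 µg/g against solvent the median was -0.01, the range -0.39 to 0.29, and 31 of 76 were above 0. Both comparisons share the solvent libraries. Over all tested genes the medians were -0.00015 and 0.0042. The large-subunit genes had medians of -0.01 at 33.3 µg/g (18 of 46 above 0) and 0.01 at 3.33 µg/g (23 of 46 above 0), and the small-subunit genes -0.04 (7 of 30 above 0) and -0.03 (8 of 30 above 0). Between 33.3 and 3.33 µg/g the family median was -0.02, with 23 of 76 above 0. Without the pair of libraries with little albumin, 0 of 76 passed and the medians were -0.03 at 33.3 µg/g, with 20 above 0, and -0.01 at 3.33 µg/g, with 35 above 0. The side of 0 also rested on single libraries. At 33.3 µg/g against solvent the number above 0 was 5 without 33.3 µg/g replicate 5 (median -0.08), 14 without replicate 1 (-0.04), 42 without replicate 2 (0.01) and 52 without replicate 3 (0.01), and it was 42 without solvent replicate 3 (0.01). For 3.33 µg/g against solvent it was 45 without 3.33 µg/g replicate 3 (0.02) and 47 without solvent replicate 3 (0.02). Between the doses it ran from 5 without 33.3 µg/g replicate 5 (-0.07) to 49 without 33.3 µg/g replicate 3 (0.02). It was also 14 and 44 without 33.3 µg/g replicates 1 and 2, and 39, 12 and 45 without 3.33 µg/g replicates 1, 3 and 5. The sign of such small medians moved with the scaling as well. On library totals alone, which move the median of all genes to 0.06 at 3.33 µg/g, the family median at that dose was 0.04, with 57 of 76 above 0. On totals without albumin and the ribosomal protein genes the family medians were -0.05 at 33.3 µg/g, with 13 above 0, and 0.01 at 3.33 µg/g, with 42 above 0. This scaling moved the medians of all genes to -0.03 at 33.3 µg/g and 0.02 at 3.33 µg/g.

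These genes were measured more precisely than most, so the intervals around their changes were narrow. The median standard error (SE) of the log2 fold change at 33.3 µg/g was 0.09 for the ribosomal protein genes and 0.16 over all tested genes. The 95% interval of 74 of 76 at 33.3 µg/g stayed within a 1.5-fold change in either direction, against 56.5% of all tested genes. RPL3L and RPS23 were the exceptions. The intervals of 72 of 76 did so at 3.33 µg/g, against 54.0% of all tested genes, with RPL3L, RPS23, RPS27L and RPL22L1 as exceptions. Leaving out RPL3L, the interval bounds farthest from 0 were -0.53 and 0.59 at 33.3 µg/g and -0.75 and 0.63 at 3.33 µg/g. Complete separation of the libraries of a dose from those of solvent was seen for 2.91% of all genes at 33.3 µg/g and 3.89% at 3.33 µg/g, and for 0 of the 76 at either dose. It was seen between 33.3 and 3.33 µg/g for 0.655% of all genes and 0 of the 76.

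**Figure D2:**
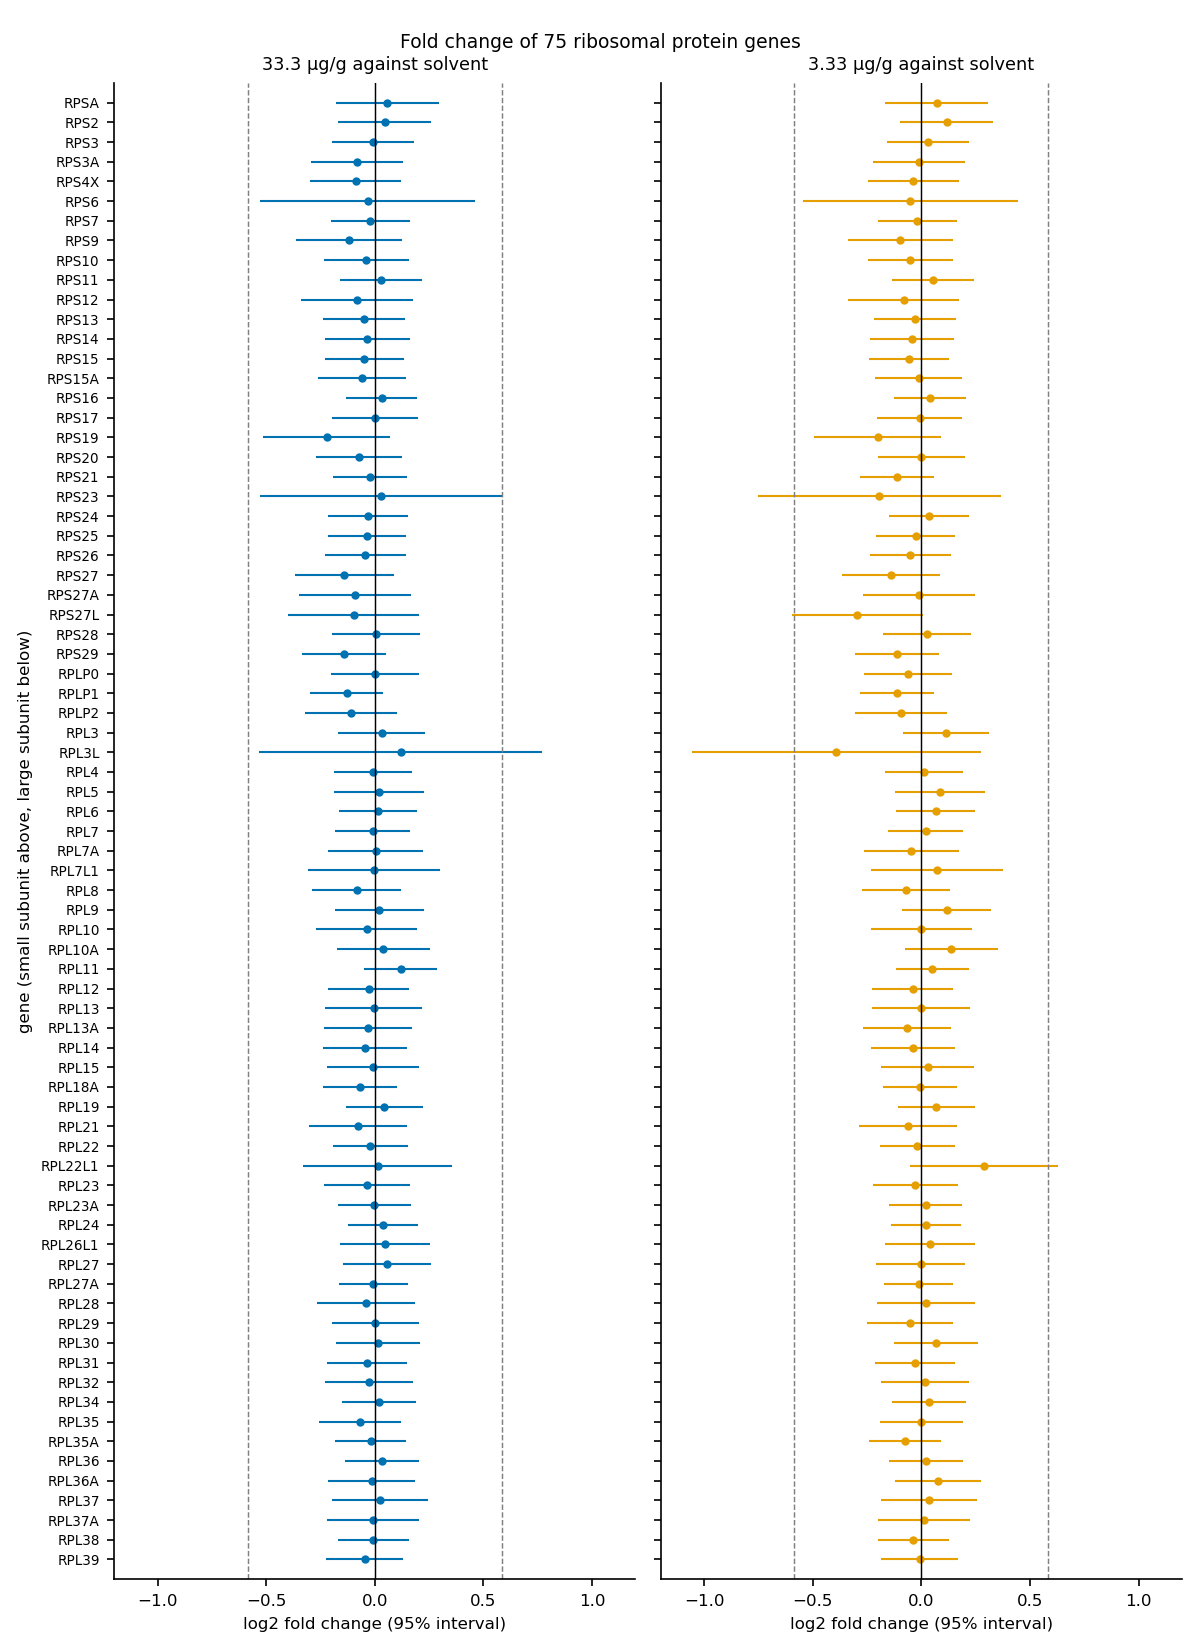
Log2 fold change of 75 of the 76 ribosomal protein genes against solvent at 33.3 µg/g (left) and 3.33 µg/g (right), from the edgeR fit to all 15 libraries. Points are estimates, horizontal lines 95% intervals, and dashed lines mark a 1.5-fold change in either direction. All plotted estimates lie between -0.39 and 0.29, and the widest intervals belong to RPL3L, RPS23 and RPS6.

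The stalk of the large subunit, which recruits the translation factors that hydrolyse GTP, is built from RPLP0, its base, and RPLP1 and RPLP2, its flexible arms. RPLP1 had the smallest p of the family at 33.3 µg/g. In replicates 1 to 5 RPLP1 was at 682, 662, 680, 708 and 607 CPM with solvent, at 630, 591, 573, 627 and 666 CPM at 3.33 µg/g and at 635, 601, 574, 556 and 686 CPM at 33.3 µg/g. Of the 33.3 µg/g libraries 3 lay below every solvent library, and the other two lay within the solvent range. The log2 fold change of RPLP1 was -0.13 at 33.3 µg/g (SE 0.08, 95% interval -0.30 to 0.04, adjusted p = 0.626) and -0.11 at 3.33 µg/g (SE 0.08, adjusted p = 0.560). RPLP2 averaged 289 ± 35.6 CPM at 33.3 µg/g and 312 ± 21.2 CPM with solvent (log2 fold change -0.11, SE 0.10, adjusted p = 0.795). RPLP0 averaged 1353 ± 151 CPM at 33.3 µg/g and 1353 ± 89.5 CPM with solvent, a log2 fold change of -0.00029 with a 95% interval of -0.20 to 0.20.

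Among the small-subunit genes the lowest estimate at 33.3 µg/g was that of RPS19, whose protein is needed to mature the small-subunit RNA and is mutated in human Diamond-Blackfan anaemia. RPS19 was at 479, 616, 525, 634 and 576 CPM with solvent, at 408, 437, 407, 531 and 677 CPM at 3.33 µg/g and at 418, 490, 536, 497 and 485 CPM at 33.3 µg/g. A single 33.3 µg/g library lay below the solvent range, while the 3.33 µg/g libraries reached both below and above it. The estimate was a log2 fold change of -0.22 at 33.3 µg/g (SE 0.14, 95% interval -0.51 to 0.07, adjusted p = 0.629) and -0.20 at 3.33 µg/g (SE 0.14, adjusted p = 0.543).

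RPS29, a small zinc-binding protein, averaged 291 ± 20.4 CPM at 33.3 µg/g and 321 ± 26.7 CPM with solvent (log2 fold change -0.14, SE 0.09, adjusted p = 0.656). RPS9, which lies near the entry of the messenger RNA channel, averaged 765 ± 116 CPM at 33.3 µg/g and 831 ± 94.7 CPM with solvent (log2 fold change -0.12, SE 0.11, adjusted p = 0.808). RPS21, a small component of the small subunit, averaged 134 ± 9.88 CPM at 3.33 µg/g and 145 ± 8.32 CPM with solvent (log2 fold change -0.11, SE 0.08, adjusted p = 0.565).

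RPS27A encodes a small-subunit protein made as a fusion with ubiquitin. It averaged 420 ± 78.0 CPM at 33.3 µg/g and 447 ± 19.4 CPM with solvent, with a log2 fold change of -0.09 (95% interval -0.35 to 0.17). RPSA, a small-subunit protein also known as a laminin receptor, was at 884, 1012, 1152, 1158 and 1000 CPM with solvent, at 1020, 947, 1057, 1210 and 1238 CPM at 3.33 µg/g and at 1033, 1018, 975, 1072 and 1316 CPM at 33.3 µg/g. The top library of each dose exceeded all solvent libraries and the rest overlapped them, apart from 3.33 µg/g replicate 4, which also lay above. For RPSA the log2 fold change was 0.06 at 33.3 µg/g (95% interval -0.18 to 0.29) and 0.07 at 3.33 µg/g (95% interval -0.17 to 0.31).

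RPL5 and RPL11 enter the large subunit together with its smallest RNA, and the particle they form can bind MDM2 and so stabilise p53 in mammalian cells. RPL11 had the highest estimate at 33.3 µg/g apart from the scarce RPL3L. It was at 430, 455, 450, 446 and 446 CPM with solvent, at 461, 449, 453, 454 and 490 CPM at 3.33 µg/g and at 468, 463, 451, 454 and 582 CPM at 33.3 µg/g. Replicates 1, 2 and 5 at 33.3 µg/g lay above the solvent range, and replicate 5 stood far above the rest. The log2 fold change of RPL11 at 33.3 µg/g was 0.12 (SE 0.08, 95% interval -0.05 to 0.29, adjusted p = 0.665), and with each library left out in turn it ran from 0.04 to 0.14. RPL5 averaged 652 ± 86.0 CPM at 33.3 µg/g and 643 ± 59.1 CPM with solvent, with a log2 fold change of 0.02 (95% interval -0.19 to 0.23).

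RPL3, which reaches into the catalytic centre of the large subunit, averaged 843 ± 33.7 CPM at 3.33 µg/g and 779 ± 63.3 CPM with solvent (log2 fold change 0.11, SE 0.09, adjusted p = 0.631). RPL10A, which sits at the exit side where deacylated tRNA leaves, averaged 391 ± 32.3 CPM at 3.33 µg/g and 356 ± 37.1 CPM with solvent (log2 fold change 0.14, SE 0.10, adjusted p = 0.582). At 33.3 µg/g the log2 fold changes of RPL3 and RPL10A were 0.03 and 0.04. RPL39, which lines the tunnel through which the nascent chain leaves, averaged 356 ± 39.5 CPM at 33.3 µg/g and 367 ± 22.7 CPM with solvent, a log2 fold change of -0.05 with an interval of -0.22 to 0.13.

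Several ribosomal protein genes of vertebrates have a duplicate that is named for them, and 2 of these duplicates had the estimates farthest from 0 among the well-counted genes at 3.33 µg/g. RPL22L1 is the duplicate of RPL22, an RNA-binding protein of the large subunit. In mouse cells RPL22 holds the level of this duplicate down. RPL22L1 was at 85.4, 101, 90.4, 84.95 and 90.2 CPM with solvent, at 104, 96.0, 116, 153 and 83.0 CPM at 3.33 µg/g and at 119, 79.9, 69.3, 83.3 and 105 CPM at 33.3 µg/g. Of the 3.33 µg/g libraries 3 lay above the solvent range and 1 below it, and at 33.3 µg/g 2 lay above and 3 below. RPL22L1 had a log2 fold change of 0.29 at 3.33 µg/g (SE 0.16, 95% interval -0.05 to 0.63, adjusted p = 0.434) and 0.01 at 33.3 µg/g (SE 0.16, adjusted p = 0.991). With each library left out in turn the value at 3.33 µg/g ran from 0.14 to 0.37. RPL22 itself spanned 168 to 211 CPM over all 15 libraries, with log2 fold changes of -0.02 at either dose.

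RPS27L is the duplicate of RPS27, a zinc-binding protein of the small subunit, and is a target of p53 in human cells. RPS27L was at 196, 175, 181, 166 and 175 CPM with solvent, at 178, 131, 147, 105 and 167 CPM at 3.33 µg/g and at 119, 173, 171, 176 and 196 CPM at 33.3 µg/g. At 3.33 µg/g 3 libraries lay below the solvent range, and at 33.3 µg/g replicate 1 did. The log2 fold change of RPS27L at 3.33 µg/g was -0.29 (SE 0.14, 95% interval -0.60 to 0.01, adjusted p = 0.354, edgeR), and its p was the smallest of the family at that dose. The estimate at 33.3 µg/g was -0.10 (SE 0.14, adjusted p = 0.888). RPS27 had log2 fold changes of -0.14 at either dose (SE 0.11 each, adjusted p = 0.725 at 33.3 µg/g and 0.595 at 3.33 µg/g).

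The lowest values of RPS27L and the highest of RPL22L1 fell in the same libraries. In 3.33 µg/g replicate 4 RPS27L was at its lowest, 105 CPM, and RPL22L1 at its highest, 153 CPM. In 33.3 µg/g replicate 1 RPS27L was at its next lowest and RPL22L1 at its next highest, 119 CPM each. These are the libraries with the least albumin, and the part of that difference in these values was not tested. Expressed as a percentage of the partner's CPM, with no correction for length, RPL22L1 stood at 47.9 ± 4.2 of RPL22 with solvent, 59.7 ± 15.4 at 3.33 µg/g and 48.7 ± 7.46 at 33.3 µg/g (SD, n = 5 each). RPS27L stood at 50.4 ± 8.03 of RPS27 with solvent, 44.3 ± 7.61 at 3.33 µg/g and 51.8 ± 11.2 at 33.3 µg/g.

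RPL7L1, named for its likeness to RPL7, stood at 16.8 ± 2.93 percent of RPL7 with solvent, 17.4 ± 2.69 at 3.33 µg/g and 16.9 ± 1.85 at 33.3 µg/g. Its log2 fold changes were -0.0046 at 33.3 µg/g and 0.07 at 3.33 µg/g, with an SE of 0.14 each. RPL26L1, a close relative of RPL26, averaged 369 ± 52.3 CPM at 33.3 µg/g and 357 ± 19.1 CPM with solvent, with a log2 fold change of 0.05 (95% interval -0.16 to 0.26). RPL3L, the form of RPL3 found in mammalian heart and skeletal muscle, was barely detected, and averaged 0.389 CPM at 33.3 µg/g and 0.356 CPM with solvent. Reads shared between a duplicate and its partner are divided by the quantification model, so the separate values of such a pair are uncertain.

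**Figure D3:**
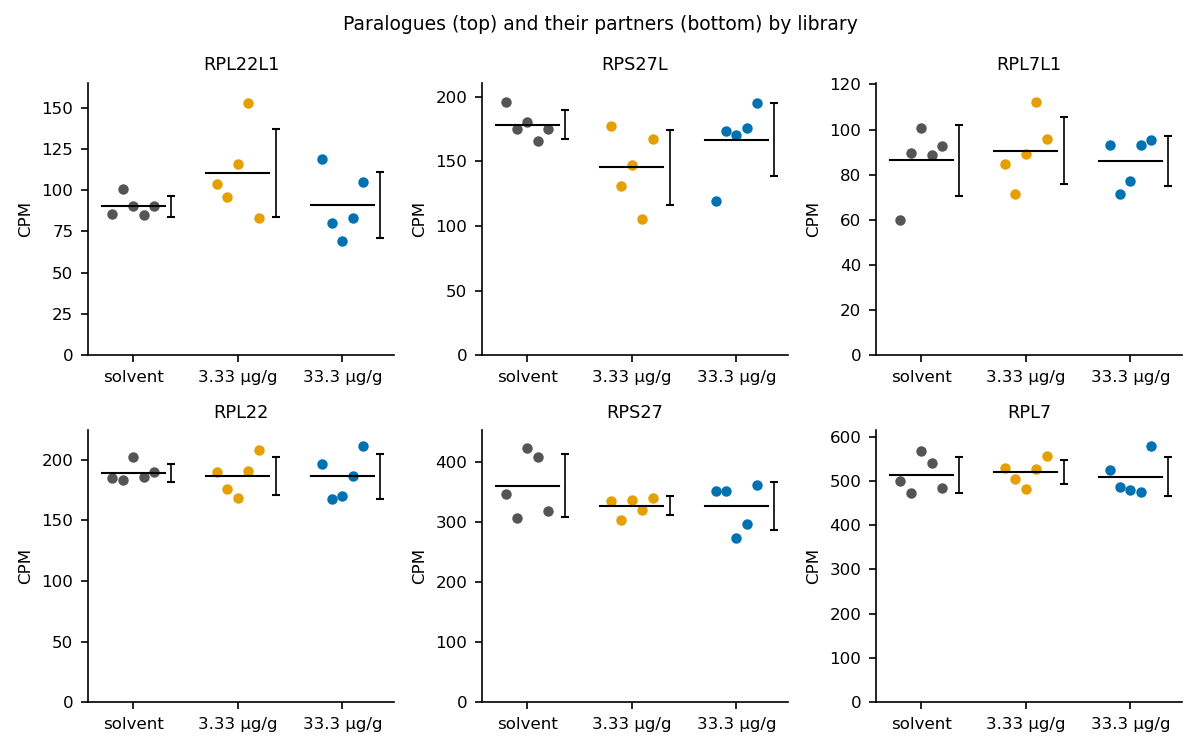
Level (CPM on TMM-scaled totals, axes from 0) of RPL22L1, RPS27L and RPL7L1 (top row) and of the genes they are named for (bottom row), by ethinylestradiol group. Points are libraries in order of replicate number, horizontal lines group means and vertical bars the SD over 5 libraries. RPL22L1 reaches 153 CPM and RPS27L is at 105 CPM in the same 3.33 µg/g library, while RPL22 stays between 168 and 211 CPM.

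Most ribosomal protein genes moved together from library to library. Over the 15 libraries the SD of log2 CPM had a median of 0.13 over the 75 genes that averaged at least 1 CPM, with a range of 0.08 to 0.45. For comparison, 1445 other tested genes in the same range of levels had a median SD of 0.21, with quartiles of 0.14 and 0.32. When each gene was expressed relative to the median of the family in its library, the median SD became 0.08. It became smaller for 69 of the 75 genes and did not for 6. The family median comes from the same genes, and the other genes were not expressed relative to a median of their own. Whether such a fall is particular to this family was thus not tested. Against this shared movement 56 of 75 genes varied by an SD under 0.1, and 6 reached 0.2 or more. These were RPS23 (0.46), RPS6 (0.39), RPL22L1 (0.27), RPS27L (0.27), RPS19 (0.24) and RPL7L1 (0.20).

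**Figure D4:**
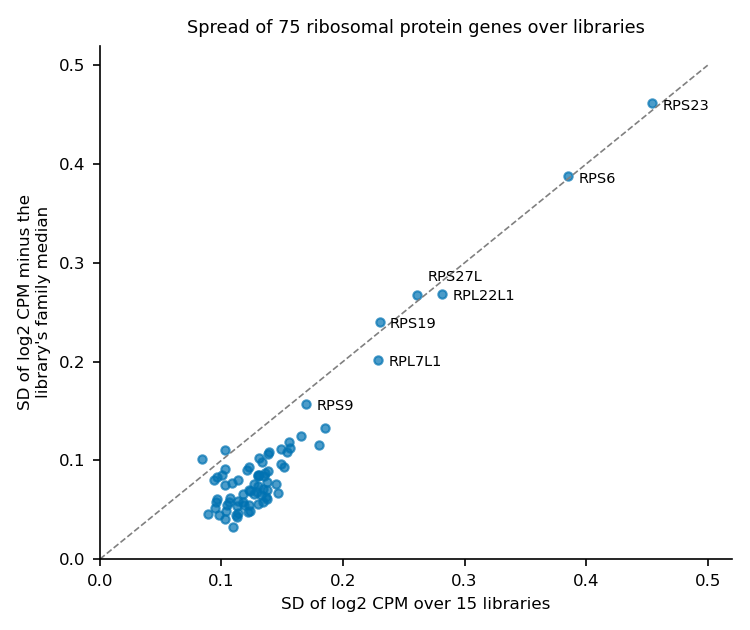
SD over 15 libraries of log2 CPM of each of 75 ribosomal protein genes (x axis, log2 units), against the SD after the library's median over the family was subtracted (y axis, log2 units). Points below the dashed line of equality varied less around the family than in themselves, as 69 of 75 did. RPS23 and RPS6 lie farthest out.

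The genes with the widest spread, RPS23 and RPS6, are both placed on chromosome Z in the gene table, as is RPL37. RPS6 is the small-subunit protein that S6 kinases phosphorylate downstream of mTOR, RPS23 lies at the decoding centre, and RPL37 is a zinc-binding protein of the large subunit. RPS6 was at 994, 1057, 611, 999 and 1001 CPM with solvent, at 1069, 1108, 572, 591 and 1158 CPM at 3.33 µg/g and at 586, 938, 862, 977 and 1194 CPM at 33.3 µg/g. RPS23 was at 717, 664, 338, 676 and 678 CPM with solvent, at 661, 635, 350, 325 and 714 CPM at 3.33 µg/g and at 390, 604, 627, 652 and 862 CPM at 33.3 µg/g. Both genes were low in the same 4 libraries, which are solvent replicate 3, 3.33 µg/g replicates 3 and 4, and 33.3 µg/g replicate 1. RPL37, at 222 to 263 CPM in these libraries and 198 to 294 CPM in the other 11, was not.

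The same 4 libraries had the lowest level of chromosome Z as a whole. This level was taken as the mean log2 CPM of 642 other tested genes placed on Z, centred over the 15 libraries. It was -0.28 in solvent replicate 3, -0.25 and -0.33 in 3.33 µg/g replicates 3 and 4, and -0.30 in 33.3 µg/g replicate 1, and lay between 0.01 and 0.20 in the other 11 libraries. The pair with little albumin, 3.33 µg/g replicate 4 and 33.3 µg/g replicate 1, is thus among the 4 libraries with a low Z level. Male birds carry a pair of Z chromosomes and females a Z and a W, and Z-linked genes are only partly balanced between the sexes. The labels give no sex, and its part in these values was not tested.

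RPS6 and RPS23 rose with the chromosome Z level in a fit of group and Z level together. The slope, in log2 units of the gene per log2 unit of Z level, was 1.93 for RPS6 (SE 0.24, adjusted p = 0.00037) and 2.18 for RPS23 (SE 0.29, adjusted p = 0.000592), by edgeR's quasi-likelihood test. For RPL37 it was -0.23 (SE 0.23, adjusted p = 0.675). Over all tested genes 495 (3.41%) passed, of which 340 (2.34% of those tested) rose and 155 (1.07%) fell with the Z level. Of the 73 ribosomal protein genes placed elsewhere or on no chromosome, 0 passed. Among all 13863 tested genes not on Z 115 rose and 149 fell, a small share, so the 0 does not set the 73 apart. The other 642 Z genes, which form the level, had a median slope of 1.01 with quartiles of 0.36 and 1.76. Of the 3 ribosomal protein genes on Z 2 rose, against 223 of the 642 others (34.7%). The hepatocyte markers had a slope above 0 in 9 of 9 genes (median 1.12), with 1 call, SERPINC1 (slope 1.31, adjusted p = 0.0231, edgeR). Of 2 biliary markers 1 was called lower with the Z level, SOX9 (slope -4.71, adjusted p = 0.0107, edgeR), at 1.53 to 42.2 CPM. The macrophage markers were below 0 in 5 of 6 (median -1.16). Slopes above 0 were found for 3 of 4 erythroid, 4 of 7 endothelial and 3 of 7 stellate markers. These 4 lists had 0 calls. The part of the markers in the slopes of RPS6 and RPS23 was not tested. The slope of RPS6 was above that of 519 of the other Z genes and the slope of RPS23 above that of 565, whereas RPL37 was above 70. The relation rested on the 4 libraries. Within the other 11 the slopes were -0.46 for RPS6 (SE 1.15, adjusted p = 0.943) and -1.33 for RPS23 (SE 1.25, adjusted p = 0.825). In these 11 libraries 0 genes of the family passed, and 2 of the 76 had a slope above 0. The family median slope was -1.23 there, against -0.02 over all genes tested. Slopes below 0 were thus not particular to RPS6 and RPS23.

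**Figure D5:**
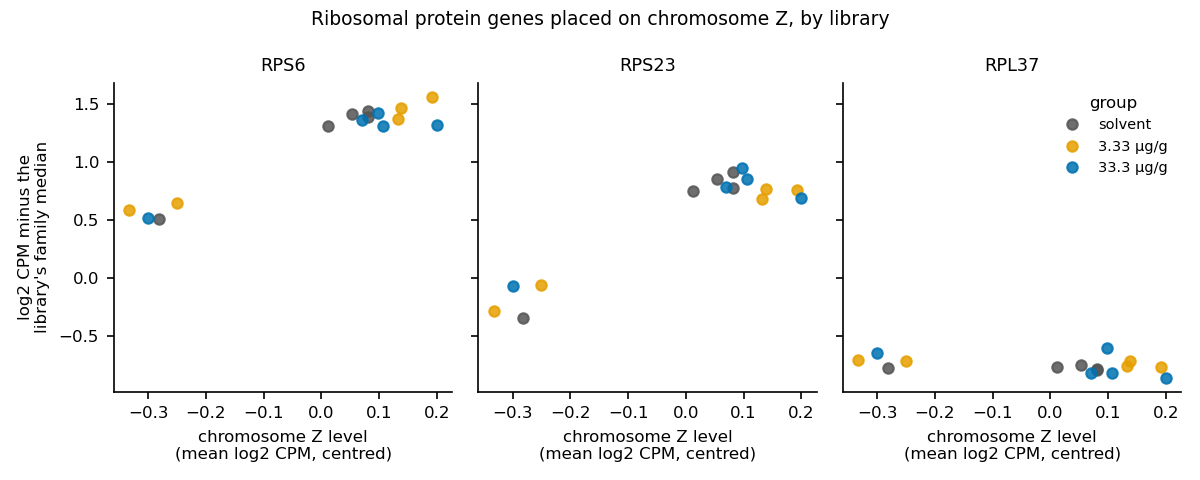
Level of RPS6, RPS23 and RPL37 in each library, as log2 CPM minus the library's median over the ribosomal protein genes (y axis), against the level of chromosome Z (x axis, mean log2 CPM of 642 other Z genes, centred). Points are libraries, coloured by group, and the 4 libraries at the left are those with a Z level under -0.2. RPS6 and RPS23 are low in these and RPL37 is not.

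Away from chromosome Z the nearest to the threshold was RPL22L1, with a slope of -0.95 (SE 0.27, adjusted p = 0.0677, edgeR). It passed with replicate number as a block (slope -1.40, adjusted p = 0.0264), without solvent replicate 3 (-1.15, adjusted p = 0.0286) and without 33.3 µg/g replicate 5 (-1.03, adjusted p = 0.0481). Over all 21 alternative settings the slope of RPL22L1 ran from -1.40 to -0.21, with an adjusted p of up to 0.982 (edgeR or limma-voom). RPS27L had a slope of 0.76 (SE 0.27, adjusted p = 0.160) and RPL7L1 of -0.69 (SE 0.28, adjusted p = 0.216). Within the 11 libraries of higher Z level the slope of RPS27L was -0.88 (SE 1.18), where the family median slope was -1.23.

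For RPS6 and RPS23 the estimates against solvent, and more so their errors, depended on whether the Z level was in the model. With 2 low libraries at 3.33 µg/g, 1 at 33.3 µg/g and 1 with solvent, the plain fit gave RPS6 a log2 fold change of -0.03 (SE 0.23) at 33.3 µg/g and -0.05 (SE 0.23) at 3.33 µg/g. With the Z level in the model these became -0.12 (SE 0.10, adjusted p = 0.699, edgeR) and -0.07 (SE 0.10, adjusted p = 0.804). For RPS23 the values were 0.03 (SE 0.26) at 33.3 µg/g and -0.19 (SE 0.26) at 3.33 µg/g in the plain fit. They were -0.05 (SE 0.12) and -0.20 (SE 0.12) with the Z level. The sign at 33.3 µg/g thus depended on the model for RPS23, and neither value passed.

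The balance between the subunits differed between libraries along with RPS6 and RPS23. The summed CPM of the large-subunit genes was 1.32, 1.32, 1.41, 1.33 and 1.37 times that of the small-subunit genes with solvent. It was 1.38, 1.36, 1.45, 1.44 and 1.31 times at 3.33 µg/g and 1.48, 1.34, 1.36, 1.38 and 1.35 times at 33.3 µg/g. The 4 highest ratios were those of the 4 libraries with a low Z level. When the Z-placed genes were left out of the sums, the ratios of these 4 libraries were 1.48 (solvent replicate 3), 1.54 and 1.52 (3.33 µg/g replicates 3 and 4) and 1.56 (33.3 µg/g replicate 1), against 1.45 to 1.54 in the others.

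Genes that work with the ribosomal proteins were read from fixed lists. Of 21 tested genes for other parts of the cytosolic translation machinery or with messenger RNAs known to carry the pyrimidine tract, 0 passed at 33.3 µg/g and 1 rose at 3.33 µg/g, where 1.07% of all tested genes rose and 0.31% fell, with median log2 fold changes of -0.01 and 0.01. It was IMPDH2, an enzyme of guanine nucleotide synthesis, at 124 to 149 CPM at 3.33 µg/g and 90.0 to 116 CPM with solvent (log2 fold change 0.36, SE 0.08, adjusted p = 0.0405, edgeR). The IMPDH2 call was lost in 18 of 28 alternative settings, with an adjusted p of up to 0.132.

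The genes of ribosome assembly and ribosomal RNA synthesis gave 0 calls among 49 tested at either dose. Of all tested genes 1.08% passed at 33.3 µg/g and 1.38% at 3.33 µg/g. An unadjusted p under 0.05 (edgeR) was found for 3 of the 49 at 33.3 µg/g and 11 at 3.33 µg/g. Over all 14508 tested genes it was found for 1560 and 2121. Of these 49, 37 were above 0 at 33.3 µg/g and 41 at 3.33 µg/g, with medians of 0.03 and 0.14. Over all 14508 tested genes 7252 and 7369 were above 0. With the Z level 41 of the 49 had a slope below 0, against 7456 of the 14508. The part of the Z level in these medians was not tested. Among 25 initiation factors 0 passed at either dose, with medians of -0.0048 and 0.08. The 73 mitochondrial ribosomal protein genes, whose proteins serve the separate ribosome of the mitochondrion, likewise had 0 calls and medians of 0.02 and -0.03.

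Of 27 tested regulators of ribosomal protein synthesis, 1 rose and 1 fell at 33.3 µg/g, where 0.937% of all tested genes rose and 0.145% fell, and 0 passed at 3.33 µg/g. LARP1, which binds the pyrimidine tract at the start of ribosomal protein messenger RNAs, rose at 33.3 µg/g. In replicates 1 to 5 it was at 313, 340, 328, 316 and 307 CPM with solvent, at 397, 420, 348, 354 and 378 CPM at 3.33 µg/g and at 439, 477, 478, 414 and 430 CPM at 33.3 µg/g. All 5 libraries of either dose lay above every solvent library. Complete separation in either direction was seen for 2.91% of all tested genes at 33.3 µg/g and 3.89% at 3.33 µg/g. The log2 fold change of LARP1 was 0.48 at 33.3 µg/g (SE 0.07, adjusted p = 0.0034, edgeR) and 0.24 at 3.33 µg/g (SE 0.07, adjusted p = 0.131). In 28 alternative settings the value at 33.3 µg/g ran from 0.45 to 0.50 and its call was lost in 0, with an adjusted p of at most 0.0163.

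RPS6KA3, a kinase of the RSK family downstream of ERK that can phosphorylate RPS6, fell at 33.3 µg/g. It was at 62.0 to 76.7 CPM at 33.3 µg/g and 80.7 to 88.6 CPM with solvent, with no overlap (log2 fold change -0.30, SE 0.07, adjusted p = 0.0471, edgeR). At this dose 2.91% of all tested genes had no overlap. The RPS6KA3 call was lost in 19 of 28 alternative settings, with an adjusted p of up to 0.259. The log2 fold change of RPS6KA3 for 3.33 µg/g was -0.22 (SE 0.07, adjusted p = 0.141). These data measure messenger RNA only, so the translation of the ribosomal protein genes was not measured.

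For 69 of the 76 genes the deposited table holds 1 transcript entry, and 7 have more, up to 6 for RPS24. In RPS24, a protein of the small subunit, 2 entries of equal value each took 49.7% to 49.9% of the gene. In RPL15, a large-subunit protein, the first of its entries took 48.3% to 77.5% of the gene over the 15 libraries. In RPL26L1 the leading entry took 43.2% to 89.2%, with both the lowest and the highest share in 3.33 µg/g libraries. All values given above are sums over the entries of a gene.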

How the data were processed

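RNA-seq libraries of left-lobe liver, 5 per group, were used. Per the submitters' processing notes the authors used kallisto; which version, index and build is not given in the sources used here. Values in the deposited table are estimated counts (expected counts) of transcript entries, without normalization, and 0 value columns were left unused. The 47418 entries were added up by gene ID, and sums were rounded. Of 20308 IDs, 18900 matched the NCBI gene table for assembly Coturnix japonica 2.1, used for symbols and chromosomes only; the others held a median of 0.51% of a library's counts.

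edgeR 4.0.16 in R 4.3.3 was run with filterByExpr by group, TMM factors and the robust quasi-likelihood F-test on 1 model of group over 15 libraries. It tested 14508 genes (common biological coefficient of variation 0.263). Two-sided p-values were adjusted over all tested genes (Benjamini-Hochberg), with a threshold of 0.05. The SE is the log2 fold change over the square root of the F statistic. CPM are counts on TMM-scaled totals. The Z fit added the mean log2 CPM of Z genes outside the family. The pipeline was tested on simulated data.

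The genes and lists were chosen with earlier results of these data known. Named were the 8 genes with the smallest p against solvent at each dose and the 5 with the largest SD around the family. Duplicates with their partners, the stalk genes, the Z-placed genes, RPSA, RPL5, RPL11, RPS6 and RPS27A were named, and from other lists the genes that passed. A gene that this rule names is not reported here. RPL15 and RPS24 were chosen after their values were seen. Levels per coding length and sequences were not used here, so levels are not ranked between genes. No pairing of libraries by replicate number was seen: residuals correlated at over 0.1 in 1 of 15 same-number pairs, and best with the own number in 0 libraries. The residuals were not adjusted for Z level or albumin, so a pairing could go unseen. None of 30 replicate pairs was a copy (chi-square per degree of freedom at least 27). Alternatives were other scalings and filters, DESeq2 1.42.0, limma-voom (limma 3.58.1), covariates, a replicate block, each library left out, and a fit within 11 libraries. Counting limits precision at these totals for RPL3L. Figures used Python 3.11.15, pandas 2.3.3 and matplotlib 3.10.9.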

Additional observations from a re-analysis of the deposited data

Results flagged for a closer look

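Levels of the named genes and family totals were examined in each group of 5 for a library far from the other four, 84 values in all, of which chance alone marks about 1 in 20. Of these, 4 stood apart. RPS6 in solvent replicate 3 was at 611 CPM, and the rest of that group at 994 to 1057 CPM. RPS23 in the same library was at 338 CPM, with the rest at 664 to 717 CPM. This library also had a low chromosome Z level. RPL11 in 33.3 µg/g replicate 5 was at 582 CPM, and the others of that dose at 451 to 468 CPM. RPSA in the same library was at 1316 CPM, with the others at 975 to 1072 CPM. This library had the highest sum over the family, 40975 CPM. The part of these differences in the values was not tested.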

How the results depend on the processing

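The number of ribosomal protein genes called stayed at 0 in each comparison under the 29 settings tried, in which their lowest adjusted p was 0.416 for 33.3 µg/g and 0.135 for 3.33 µg/g, each against solvent. It was 0.651 between the doses. Counts over all genes moved more. At 33.3 µg/g against solvent 157 calls became 386 with DESeq2, 101 with a replicate block, 248 at an adjusted p under 0.1 and 93 to 194 with a library left out (93 without solvent replicate 1, 103 without solvent replicate 4). At 3.33 µg/g against solvent 200 became 656 with DESeq2, 117 with a replicate block, 469 at an adjusted p under 0.1 and 111 to 264 with a library left out (111 without solvent replicate 1, 117 without 3.33 µg/g replicate 3). Between the doses 0 became 19 with DESeq2 and 2 at an adjusted p under 0.1. On totals without albumin and the ribosomal protein genes the calls split into 122 up and 42 down at 33.3 µg/g, in place of 136 and 21, and into 147 and 76 at 3.33 µg/g, in place of 155 and 45. Family medians of the comparisons between groups moved by less than the SD of the family median over the solvent libraries, 0.08. The family median slope with the Z level moved further, from -0.08 to -0.44 on library totals and to -1.23 within the 11 libraries of higher Z level. The median slope of all tested genes was -0.02 in the main fit, -0.23 on library totals and -0.02 within the 11 libraries. The 2 Z-placed genes called with the Z level became 0 within the 11 libraries of higher Z level, a setting chosen after seeing the data. There the slopes turned to -0.46 for RPS6, -1.33 for RPS23 and, among related genes, -2.01 for MRPL17, -3.04 for MRPL50, -2.78 for MRPS27, -1.16 for MRPS30, -0.72 for MRPS36, -1.72 for BTF3, -0.85 for POLR1E, -1.15 for RIOK2 and 0.0572 for NOP56. Most of the ribosomal protein genes had slopes below 0 there too, with 2 of 76 above 0. The cause of these moves was not tested. The 11 libraries are fewer and also span a narrower range of Z level, 0.01 to 0.20. The replicate block changed no call of a ribosomal protein gene other than that of RPL22L1 with the Z level.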

Other observations

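Other genes of ribosomes and their assembly also moved with the chromosome Z level in the fit of group and Z level, most of them placed on Z themselves. Of 73 mitochondrial ribosomal protein genes 5 rose with it and 0 fell, against 2.34% and 1.07% of all tested genes. These 5 are the tested genes of the list that are placed on Z, where 34.7% of the 642 genes that form the level rose. They were MRPL17 (slope 2.52, SE 0.34), MRPL50 (2.15, SE 0.36), MRPS36 (2.03, SE 0.28), MRPS30 (1.89, SE 0.27) and MRPS27 (1.67, SE 0.33), with adjusted p-values of 0.000644 to 0.0113 by edgeR. Of 21 alternative settings 3 ended the call of MRPS27, 2 that of MRPL50 and 1 each those of MRPL17, MRPS30 and MRPS36. Also on Z, RIOK2, a kinase that matures the small subunit, rose with a slope of 1.66 (adjusted p = 0.00248), a call lost in 1 of 21 settings. POLR1E, a subunit of RNA polymerase I, had a slope of 1.27 (adjusted p = 0.0248), a call lost in 5 of 21 settings. BTF3, which binds nascent chains at the ribosome, had a slope of 0.85 (adjusted p = 0.0454), a call lost in 15 of 21 settings.

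Of all 13863 tested genes not on Z, 149 fell with the Z level and 115 rose. Of the lists of ribosome and translation genes, 4 genes away from Z fell. They were 3 of the 49 genes of ribosome assembly and ribosomal RNA synthesis and 1 of the 25 initiation factors. These were the assembly factors NOP56 (slope -0.88, adjusted p = 0.0219, edgeR) and NOP16 (-1.18, adjusted p = 0.0153), the importin IPO5 (-0.73, adjusted p = 0.0342) and the initiation factor subunit EIF2B2 (-0.81, adjusted p = 0.0446). The calls of NOP56, NOP16, IPO5 and EIF2B2 were lost in 4, 5, 13 and 16 of 21 settings. C1QB, a macrophage marker, was at 11.6 to 21.9 CPM at 3.33 µg/g and 5.98 to 9.75 CPM with solvent (log2 fold change 0.87, SE 0.18, adjusted p = 0.0234, edgeR).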
